A study of Homo sapiens with 61 samples.

Results

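The genes described here encode the subunits of the receptors for glutamate, GABA, glycine and acetylcholine (the nicotinic kind), measured in human neurons treated with vincristine, a drug that destabilises microtubules. They were chosen by gene symbol alone: every protein-coding gene whose symbol follows the naming pattern of these receptor families was taken. This gave 68 of the 58440 gene identifiers in the deposited tables, in 9 families: AMPA (4 genes), kainate (5), delta (2), NMDA (7), metabotropic glutamate (8), GABA-A (19), GABA-B (2), glycine (5) and nicotinic (16). Of the 68, 53 passed the filter on low counts in experiment 1 and 58 in experiment 2, 51 passed in both and 8 in neither.

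Ionotropic receptors are ion channels built of several subunits, so which subunit genes a neuron transcribes sets what channels it can assemble. AMPA and kainate receptors carry fast excitation, NMDA receptors need the subunit GRIN1 and admit calcium, GABA-A and glycine receptors are anion channels, and nicotinic receptors are cation channels best known from autonomic ganglia, muscle and brain. Metabotropic glutamate receptors and the GABA-B receptor act through G proteins, and many of them sit on axon terminals where they reduce transmitter release.

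The study measured RNA in 61 libraries of neurons differentiated from the human iPSC line WTC11 (iPSC, induced pluripotent stem cells) through a doxycycline-driven NGN2 cassette that all groups carry. Experiment 1 compared wild type (WT) with knockouts (KO) of DLK (gene MAP3K12), of LZK (gene MAP3K13) and of both (DLK LZK double KO), 4 untreated and 4 vincristine libraries for each line. Experiment 2 used neurons that also carry the CRISPR interference machinery, and a lentivirus brought in a gRNA (guide RNA) that targets ATF2 or JUN, or a scrambled one (Control gRNA). There were 5 libraries for each group except 4 for ATF2 gRNA with vincristine. Vincristine was given at 5 nM for 16 hours on day 14, and the untreated cultures received the vehicle DMSO. The labels do not say whether a knockout line is 1 clone, nor whether replicates are separate differentiations, so p-values measure the spread between these libraries, which may be technical. A difference between untreated lines cannot be told apart from other differences between the lines.

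Total counts per library had a median of 10.3 M (M, mega) in experiment 1 (range 8.41 to 14.6) and of 53.5 M in experiment 2 (38.9 to 88.4), and the 2 tables were normalised separately. Levels from both experiments are set side by side here as descriptions, and tests were run only within an experiment. MAP3K12 RNA in untreated libraries spanned 89.7 to 94.3 CPM (counts scaled to a common library total) in WT and 23.7 to 29.7 in DLK KO, so some RNA of the targeted gene was still counted. MAP3K13 spanned 96.8 to 101 CPM in WT and 30.1 to 34.2 in LZK KO. ATF2 stood at 0.106 to 0.877 CPM in ATF2 gRNA against 111 to 158 in Control gRNA, and JUN at 2.24 to 3.47 in JUN gRNA against 81.7 to 97.8. The labels call the neurons cortical. The 7 general neuron markers summed to 4940 to 8940 CPM over the libraries, and the cortical marker CUX2 (30.5 to 71.3) was present. The forebrain markers EMX1 and EMX2 did not exceed 0.707 and 0.943 CPM in any group mean. POU4F1, a transcription factor of peripheral sensory neurons, had 435 ± 14.8 CPM in WT (untreated, SD, n = 4) and 481 ± 8.29 in Control gRNA (untreated, SD, n = 5).

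Promoter sequences are shown for the members whose values recur below, GRM4, CHRNA3 and CHRNB4, and for GABBR1, which holds the cyclic AMP response element. They are the 250 bases before the annotated start, 5′ to 3′ on the gene's strand, from the RefSeq promoter table of GRCh38.p14, with capitals marking a motif match: GRM4 at chr6:34146088-34146337 on the minus strand (1 of its 2 promoters in the table), GABBR1 at chr6:29628014-29628263, CHRNA3 at chr15:78620997-78621246 and CHRNB4 at chr15:78641211-78641460, all on the minus strand.
GRM4: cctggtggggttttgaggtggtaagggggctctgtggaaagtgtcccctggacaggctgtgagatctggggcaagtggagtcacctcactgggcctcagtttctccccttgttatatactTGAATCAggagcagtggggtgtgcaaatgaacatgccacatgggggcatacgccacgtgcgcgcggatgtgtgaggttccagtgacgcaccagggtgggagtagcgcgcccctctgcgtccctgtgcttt
GABBR1: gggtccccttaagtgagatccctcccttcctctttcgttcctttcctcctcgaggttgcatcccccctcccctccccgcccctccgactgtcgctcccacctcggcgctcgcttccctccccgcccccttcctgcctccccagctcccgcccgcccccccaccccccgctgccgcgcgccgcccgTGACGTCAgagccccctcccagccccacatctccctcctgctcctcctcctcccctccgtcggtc
CHRNA3: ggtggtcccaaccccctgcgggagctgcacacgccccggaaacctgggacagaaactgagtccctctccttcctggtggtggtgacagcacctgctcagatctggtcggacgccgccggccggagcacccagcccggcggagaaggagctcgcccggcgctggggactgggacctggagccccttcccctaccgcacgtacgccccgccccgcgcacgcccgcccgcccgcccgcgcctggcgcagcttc
CHRNB4: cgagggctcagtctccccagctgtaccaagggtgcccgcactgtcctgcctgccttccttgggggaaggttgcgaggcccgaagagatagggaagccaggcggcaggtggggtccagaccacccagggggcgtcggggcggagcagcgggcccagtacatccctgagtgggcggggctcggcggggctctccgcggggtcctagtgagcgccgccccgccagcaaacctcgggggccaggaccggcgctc
The AP-1 motif TGANTCA, which dimers of JUN with other AP-1 proteins bind, was found on either strand in windows of 300 bases (250 before and 50 after the start) of 2707 of 35116 promoters, or 7.71%. The 48 members with a window in the table have 68 promoters there. Of these 48 members, 5 held the motif in at least 1 promoter: GRM4, GRM6, GABRA6, GABRR3 and GRIN3B. Only GRM4 of them passed the filter in both experiments. The 7.71% is a share of promoters and not of genes, so it is not the background of 5 in 48. The motif TGACGTCA, which ATF2 and related factors bind, was found in 649 promoters (1.85%) and, among the members, in GABBR1 alone. CHRNA3 and CHRNB4 hold neither motif in these windows. A match of letters is a description and not a site of binding.

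Before any treatment, transcripts of every family were present, and in most families 1 or 2 genes made up most of the level. Levels of different genes are compared here as RPKM, CPM per kilobase of exon, using the gene lengths of the deposited tables. GABBR1, the ligand-binding subunit of the GABA-B receptor, stood highest of all members in WT and Control gRNA, at 40.9 RPKM in untreated WT and 101.2 in untreated Control gRNA. GRIA4, an AMPA subunit, followed in WT at 36.6 RPKM and stood at 15.2 in Control gRNA. GRIK5, a kainate subunit that needs a partner to form channels, reached 27.3 and 34.2 RPKM. CHRNA3, the alpha subunit typical of autonomic ganglia, reached 17.4 RPKM in WT and 60.1 in Control gRNA, and CHRNB2, the main beta subunit of brain nicotinic receptors, 20.5 and 28.3. The highest glycine receptor gene was GLRA2, an alpha subunit of early neurons, at 7.77 and 3.03 RPKM, the highest metabotropic gene GRM2 at 4.10 and 23.6, and the highest delta gene GRID1 at 3.58 and 1.67. The highest NMDA gene was GRIN3A in WT (12.4 RPKM) and GRIN2D in Control gRNA (3.48).

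**Figure D1:**
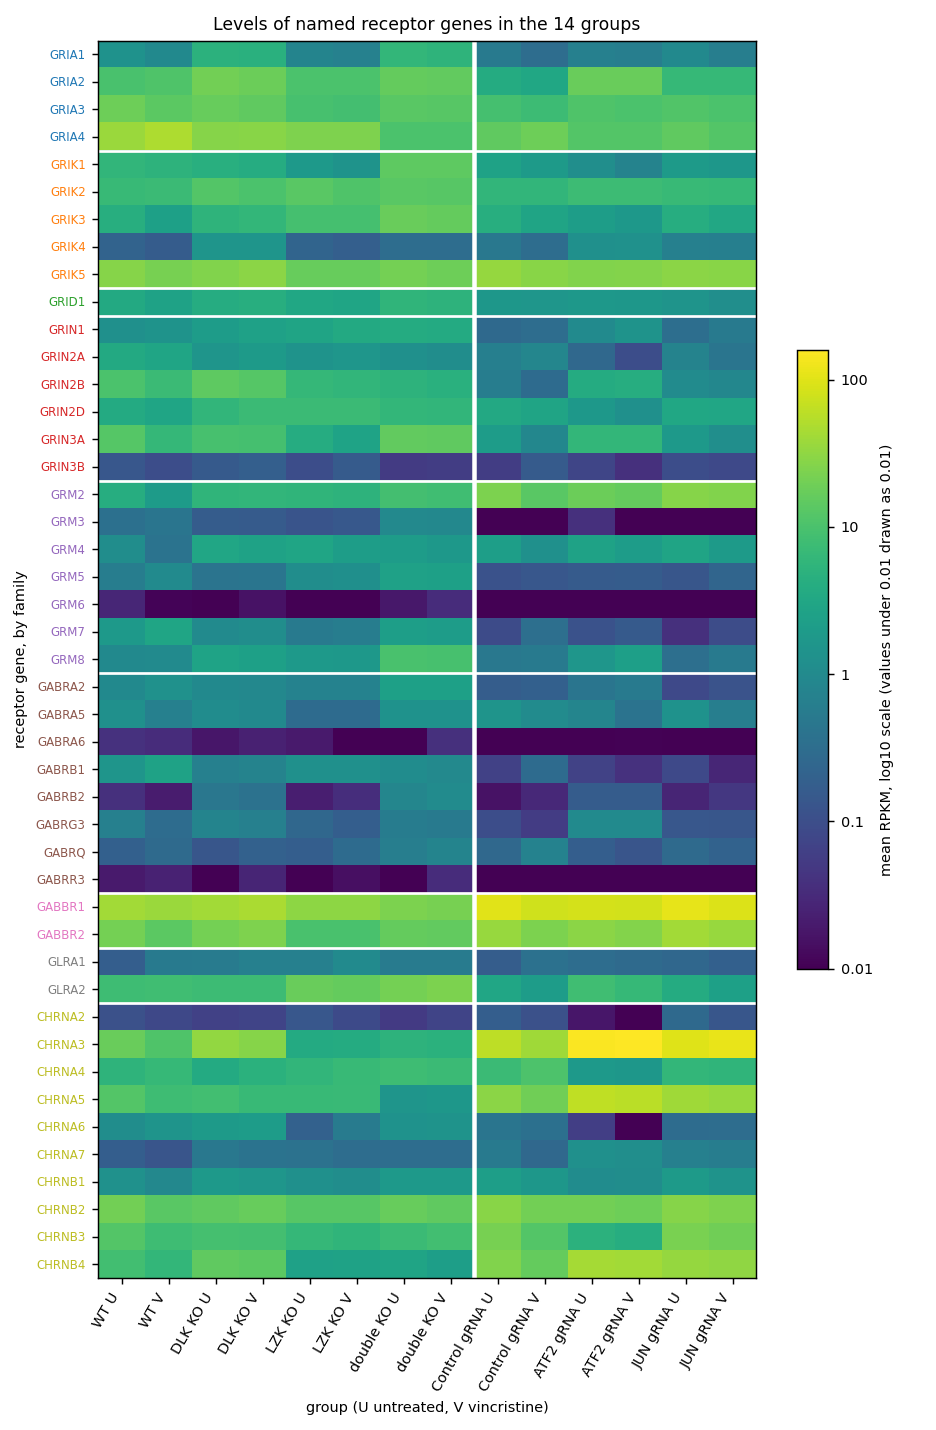
Mean level of the receptor genes named in the text (rows, by family) in the 14 groups (columns), coloured on a log10 scale of RPKM. In WT and Control gRNA the GABBR1, GRIK5 and CHRNA3 rows are among the highest.

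The subunit makeup of the families differed between untreated lines. GRIA2 carries the edited residue that keeps calcium out of AMPA receptors. It made up 14.8 ± 0.404% of AMPA subunit RPKM in untreated WT (SD, n = 4) and 13.4 ± 0.671% in untreated Control gRNA (SD, n = 5), where GRIA4 held 55.2% and 52.8%. In experiment 1 GRIA2 held 34.7 ± 1.06% in double KO, with LZK KO (23.2%) and DLK KO (29.0%) between double KO and WT. In experiment 2 it held 42.6 ± 1.05% in ATF2 gRNA. GRIN1, the subunit that every conventional NMDA receptor contains, was a small part of NMDA subunit RPKM, 4.06 ± 0.537% in WT and 3.85% in Control gRNA. The value of GRIN2B, 32.7% in WT and 8.36% in Control gRNA, is lowered by its long exon sequence of 30941 bases. The nicotinic family summed to 78.9 ± 7.21 RPKM in WT and 176.0 ± 3.78 in Control gRNA, against 45.4 in double KO, 40.4 in LZK KO, 89.3 in DLK KO and 285.0 ± 6.76 in ATF2 gRNA. CHRNA3 held 52.6% of that family in ATF2 gRNA and 11.3% in double KO. These shares describe RNA and were not tested.

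**Figure D2:**
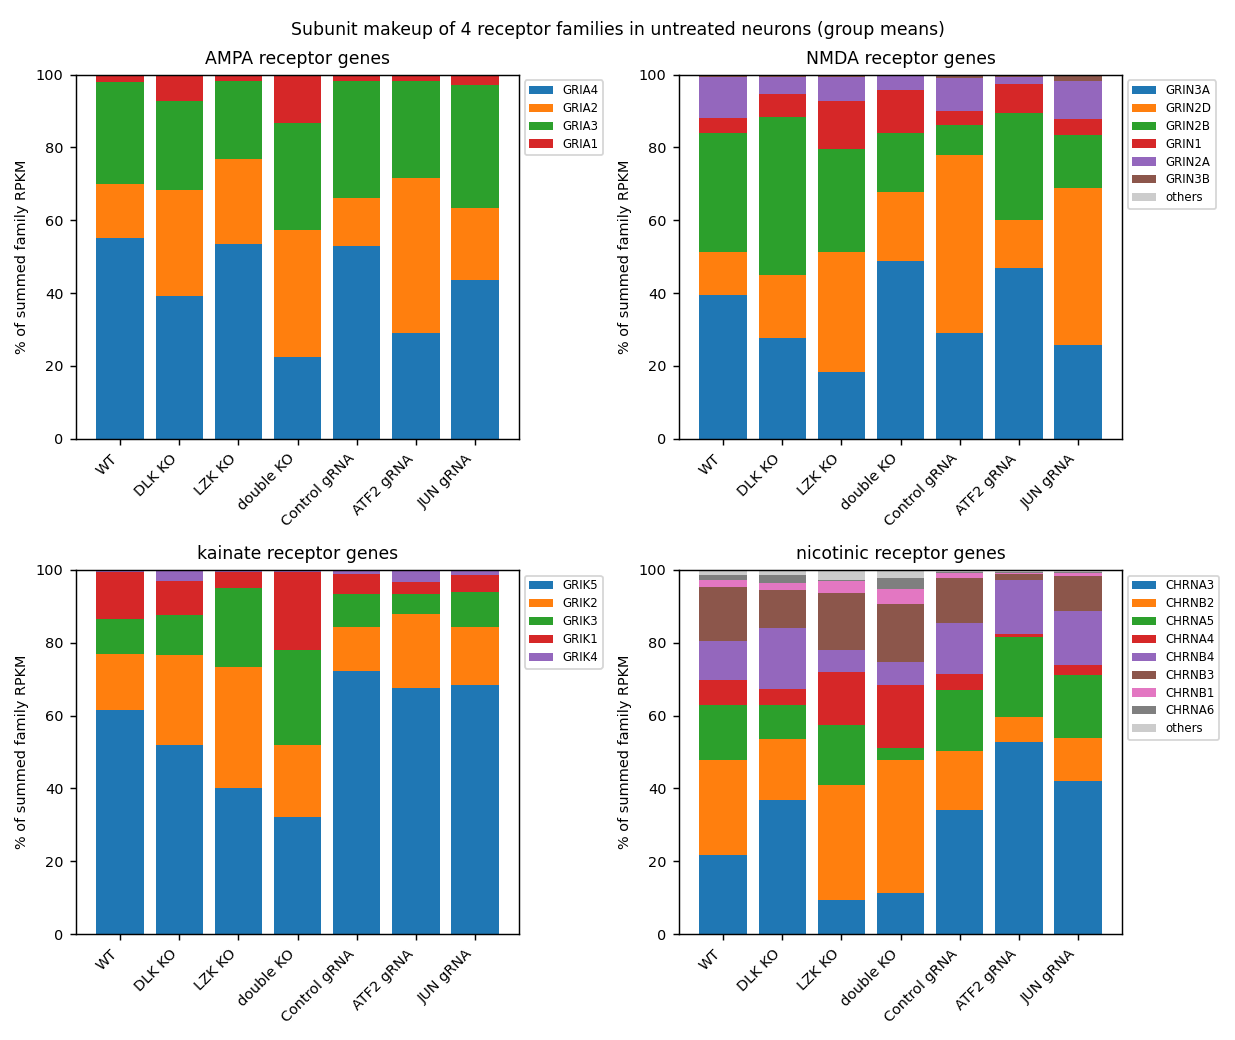
Share of each subunit in the summed RPKM of its family, as stacked bars for the 7 untreated lines (AMPA, NMDA, kainate and nicotinic families; means over libraries). The GRIA2 part of the AMPA bar is 14.8% in WT, 34.7% in double KO and 42.6% in ATF2 gRNA.

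With vincristine more receptor genes were lower than higher in both lines with intact targets, the question here being which receptor transcripts respond to the drug. A gene is called here when its p from edgeR's quasi-likelihood test is under 0.05 after Benjamini-Hochberg adjustment across the genes tested. In WT, 7 of the 53 tested members were higher with vincristine and 20 lower, while 15.7% of all genes tested were called higher and 14.5% lower. The median log2 fold change of the members was -0.28, against -0.0 for all genes. In Control gRNA, 9 of 58 were higher and 25 lower, while 17.1% of all genes were called higher and 18.1% lower, with a median of -0.29 against 0.03. Libraries of the treated and untreated groups did not overlap for 23 of the 27 genes called in WT (85.2%, against 73.5% of all genes called there) and 26 of the 34 in Control gRNA (76.5%, against 76.6%). Among the 51 genes tested in both experiments, which share no library, 21 were called in both, 16 of them lower in both, 4 higher in both and 1, GRIN2A, in opposite directions. These 21 are 77.8% of the WT calls and 61.8% of the Control gRNA calls, and 41 of the 51 had the same sign. The same shares over all genes were not counted, so nothing particular to receptors can be read from this overlap.

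**Figure D3:**
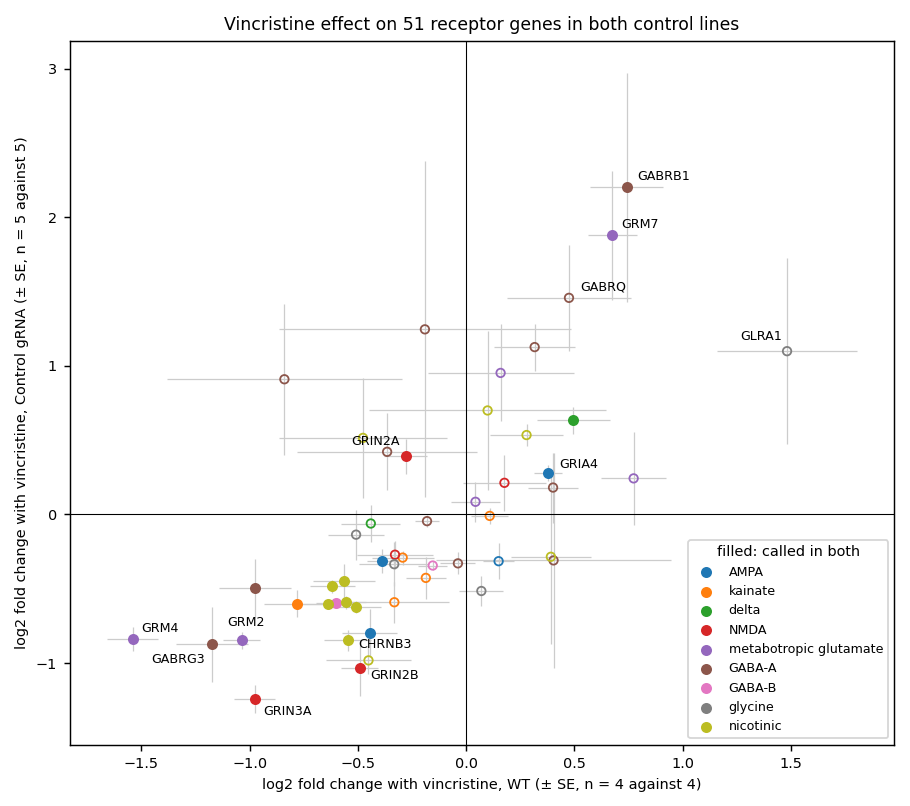
Log2 fold change with vincristine in WT (x axis) and in Control gRNA (y axis) for the 51 receptor genes tested in both experiments; filled points are the 21 genes called in both. Most filled points lie at the lower left, 4 lie in the upper right, and GRIN2A alone is called with opposite signs.

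In bulk RNA fewer cells of a type and less RNA per cell cannot be told apart, and other features moved with the drug. POU4F1 fell from 435 ± 14.8 to 177 ± 47.3 CPM in WT and from 481 ± 8.29 to 203 ± 8.95 in Control gRNA. The 6 peripheral neuron markers summed to 429 to 463 CPM over untreated WT libraries and 113 to 219 over treated ones, and to 509 to 529 and 220 to 244 in Control gRNA. The 4 progenitor markers summed to 728 to 770.0 CPM in untreated WT and 914 to 1940.0 with vincristine, and to 1310.0 to 1400.0 and 2430.0 to 2520.0 in Control gRNA. Their sum also rose in DLK KO (196 to 261, then 473 to 588), LZK KO (463 to 619, then 916 to 1110.0) and JUN gRNA (955 to 1080.0, then 1650.0 to 1760.0). It did not rise in double KO (104 to 112, then 97.2 to 103) or ATF2 gRNA (735 to 813, then 695 to 802). Most of that sum was NES, an intermediate filament gene of progenitors, whereas PAX6 and HES5 did not exceed 7.75 and 0.695 CPM in any WT or Control gRNA library. The part of both marker lists in the receptor results was not tested.

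Among metabotropic glutamate receptors, GRM4 and GRM2, which couple to inhibitory G proteins and reduce release at presynaptic endings, fell in both lines. GRM4 (ENSG00000124493.13, GRCh38 chr6:34018645-34155622), whose promoter is shown above, measured 17.0, 19.6, 18.8 and 20.4 CPM in the 4 untreated WT libraries and 5.67, 6.66, 8.26 and 5.18 with vincristine. In Control gRNA it measured 35.7, 42.6, 37.3, 34.9 and 33.1 CPM untreated and 17.4, 21.0, 21.2, 20.7 and 22.5 with the drug. Every treated library lay below every untreated one in both lines. The log2 fold change was -1.54 ± 0.12 (SE; adjusted p = 4.41e-13, edgeR quasi-likelihood test) in WT and -0.84 ± 0.08 (adjusted p = 2.78e-12) in Control gRNA. GRM2 (ENSG00000164082.14, chr3:51707070-51718613) measured 28.4, 28.5, 30.6 and 28.8 CPM in untreated WT and 13.6, 15.7, 15.2 and 12.0 with vincristine, and in Control gRNA 159, 166, 167, 173 and 173 against 85.9, 97.9, 90.9, 92.2 and 99.3. Again the groups were apart in both lines, with log2 fold changes of -1.04 ± 0.09 and -0.85 ± 0.06 (adjusted p = 5.29e-12 and 1.94e-14, edgeR).

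GRM7, another presynaptic receptor coupled to inhibitory G proteins, rose. It measured 16.4, 15.2, 12.7 and 17.8 CPM in untreated WT and 26.7, 19.2, 28.5 and 24.1 with vincristine, a log2 fold change of 0.67 ± 0.11 (adjusted p = 1.29e-05, edgeR). In Control gRNA its untreated level was low, 0.281 to 1.27 CPM, and its treated level 2.42 to 3.00 CPM, a log2 fold change of 1.88 ± 0.43 (adjusted p = 0.000486). Treated libraries were above untreated ones in both lines. GRM5, a postsynaptic receptor coupled to calcium release, rose in WT by 0.77 ± 0.15 and did not pass the test in Control gRNA, where it stood near 1 CPM. For GRM5, 50.4% of the exon bases are shared with the antisense gene GRM5-AS1, and the strand setting of the counting is not given in the sources used here.

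GABBR2, the GABA-B subunit that couples to the G protein and that the receptor needs to reach the surface, fell in both lines. GABBR2 (ENSG00000136928.6, chr9:98288082-98709197) measured 161, 157, 158 and 164 CPM in untreated WT and 123, 111, 111.5 and 76.2 with vincristine. In Control gRNA it measured 279, 259, 284, 270.0 and 285 CPM untreated and 182, 182, 189, 187 and 173 with the drug. The groups were apart in both lines, and the log2 fold changes were close, -0.60 ± 0.09 and -0.59 ± 0.03 (adjusted p = 3.16e-06 and 4.6e-19, edgeR). Its partner GABBR1 went from 857 ± 16.1 to 676 ± 17.1 CPM in Control gRNA (log2 fold change -0.34 ± 0.03, called) and from 346 ± 8.90 to 311 ± 37.7 in WT, where it did not pass the test. The KCTD proteins bind GABBR2 and shape GABA-B signalling. KCTD12 fell by 0.97 ± 0.08 on the log2 scale in WT and by 1.05 ± 0.07 in Control gRNA, while KCTD16 rose by 2.16 ± 0.09 and 1.84 ± 0.10 and KCTD8 by 0.90 ± 0.11 and 0.46 ± 0.10.

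By count, the nicotinic family had the most members lower: 6 of 11 tested in WT with none higher, and 7 of 13 in Control gRNA with CHRNA4 alone higher. It is 1 of the larger families, and smaller families had larger shares lower. These were NMDA in WT (3 of 5) and kainate (4 of 5), AMPA (3 of 4) and GABA-B (2 of 2) in Control gRNA. CHRNA5, CHRNA3 and CHRNB4 lie next to each other on chromosome 15 and encode subunits of the ganglionic nicotinic receptor. CHRNA3 (ENSG00000080644.15, chr15:78593052-78621295) measured 68.0, 76.4, 79.1 and 107 CPM in untreated WT and 51.4, 39.5, 66.8 and 54.5 with vincristine, with the highest treated library just below the lowest untreated one. In Control gRNA it measured 280.4, 274.5, 287, 288 and 303 CPM untreated and 186.5, 184, 189, 182 and 204 with the drug, well apart. The log2 fold changes were -0.64 ± 0.13 in WT (adjusted p = 0.000391, edgeR) and -0.60 ± 0.03 in Control gRNA (adjusted p = 1.39e-20). CHRNA5 (chr15:78565520-78595269) changed by -0.56 ± 0.09 and -0.59 ± 0.04, and CHRNB4 (chr15:78624119-78727754) by -0.51 ± 0.12, with overlapping libraries, and -0.62 ± 0.04. CHRNA5 shares 23.0% of its exon bases with the gene AC027228.2, so its counts are less certain.

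CHRNB2, CHRNB3 and CHRNB1 also fell in both lines. CHRNB3, a beta subunit of a few sensory and midbrain neurons, measured 31.5, 26.4, 30.7 and 32.8 CPM in untreated WT and 16.1, 20.7, 24.8 and 21.2 with vincristine. In Control gRNA it measured 53.3, 57.6, 55.8, 57.4 and 56.2 untreated and 30.5, 31.0, 32.9, 28.5 and 33.0 treated. The groups were apart in both lines, with log2 fold changes of -0.55 ± 0.11 and -0.85 ± 0.07. CHRNB2 changed by -0.62 ± 0.10 and -0.48 ± 0.04, and CHRNB1, the muscle-type beta subunit, by -0.56 ± 0.14 and -0.45 ± 0.12. CHRNA4, the usual partner of CHRNB2 in brain, rose in Control gRNA from 81.5 ± 7.62 to 118 ± 5.67 CPM (log2 fold change 0.53 ± 0.07), and stood at 60.3 ± 1.98 and 73.0 ± 24.0 CPM in WT without passing the test. CHRNA7, which forms channels of its own, fell in Control gRNA by 0.98 ± 0.09; a near-identical copy, CHRFAM7A, makes its counts uncertain. Among chaperones and modulators of nicotinic receptors, LYPD1, a membrane-anchored protein related to toxins that bind these receptors, fell by 1.60 ± 0.11 in WT and by 1.60 ± 0.07 in Control gRNA.

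AMPA subunits moved in different directions. GRIA4 (ENSG00000152578.12, chr11:105609994-105982092) measured 399, 354, 356 and 366 CPM in untreated WT and 443, 452, 468 and 552 with vincristine, with no overlap. In Control gRNA it measured 145, 143, 168, 151 and 160 CPM untreated and 199, 184, 194, 189 and 165 treated, where 1 treated library lay below the highest untreated one. GRIA4 rose by 0.38 ± 0.07 in WT and 0.28 ± 0.05 in Control gRNA on the log2 scale (adjusted p = 2.27e-05 and 4.4e-05, edgeR). GRIA3 fell in both lines (-0.39 ± 0.07 and -0.31 ± 0.08), as did GRIA1 (-0.45 ± 0.13 and -0.79 ± 0.16). The WT call of GRIA1 was lost without untreated replicate 4 (log2 fold change -0.32, adjusted p = 0.056) and in a fit of only the WT groups (-0.46, adjusted p = 0.0711). GRIA2 was called lower in Control gRNA (-0.31 ± 0.12, adjusted p = 0.0478, edgeR), a call lost without each of 8 of the 10 libraries (all except untreated replicate 2 and vincristine replicate 5), with no filter (adjusted p = 0.108) and with the replicate block (0.0529). In WT it stood at 87.6 ± 4.59 and 97.2 ± 5.41 CPM without passing the test.

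Among kainate subunits GRIK3 fell in both lines, by 0.78 ± 0.15 in WT and by 0.60 ± 0.09 in Control gRNA. GRIK5, the highest kainate gene, fell in Control gRNA from 171 ± 4.68 to 140.0 ± 7.67 CPM, and in WT stood at 137 ± 8.68 and 111 ± 33.3 CPM without passing the test. Delta receptors do not open to glutamate and act as synaptic organisers. GRID1 measured 18.8, 21.0, 20.9 and 24.1 CPM in untreated WT and 18.9, 16.4, 18.2 and 8.52 with vincristine, overlapping ranges, and was called lower (-0.44 ± 0.14). That call was lost without vincristine replicate 4 (-0.25, adjusted p = 0.059, edgeR) and in a fit of only the WT groups (adjusted p = 0.14). GRID1 stood at 9.90 ± 1.22 and 9.51 ± 1.08 CPM in Control gRNA.

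GRIN3A, an NMDA subunit that lowers calcium entry, fell in both lines. GRIN3A (ENSG00000198785.4, chr9:101569353-101738580) measured 89.6, 104, 96.4 and 114 CPM in untreated WT and 49.9, 55.9, 58.4 and 40.1 with vincristine, and in Control gRNA 15.9, 17.7, 16.9, 16.8 and 17.0 against 7.27, 6.70, 7.81, 6.55 and 7.38. The groups were far apart in both lines, with log2 fold changes of -0.98 ± 0.09 and -1.24 ± 0.09 (adjusted p = 1.64e-10 and 3.83e-15, edgeR). GRIN2B (ENSG00000273079.5, chr12:13437942-13981957), the subunit of immature NMDA receptors, went from 319 ± 38.7 to 227 ± 34.1 CPM in WT and from 18.5 ± 6.15 to 9.01 ± 1.32 in Control gRNA, log2 fold changes of -0.49 ± 0.09 and -1.03 ± 0.19. GRIN2A (ENSG00000183454.16, chr16:9753404-10182754), the subunit of mature NMDA receptors, was called in opposite directions. In WT it measured 58.5, 57.0, 57.3 and 65.5 CPM untreated and 48.3, 54.6, 56.3 and 36.5 treated, a log2 fold change of -0.28 ± 0.10 (adjusted p = 0.0297, edgeR). In Control gRNA it measured 11.5, 11.3, 10.0, 11.7 and 9.57 CPM untreated and 14.4, 14.5, 15.2, 13.2 and 13.6 treated, a log2 fold change of 0.39 ± 0.12 (adjusted p = 0.00684). Libraries were apart in both, but the WT call was lost without untreated replicate 4 (adjusted p = 0.0938), vincristine replicate 1 (0.0574) or vincristine replicate 4 (0.144, log2 fold change -0.16) and with only the WT groups (0.135). Vincristine replicate 4 of WT had the lowest value of its group for GRM4, GRM2, GABBR2, GRIN3A and GRIN2A and the highest for GRIA4. Leaving out 1 library at a time, the number of members called in WT ran from 25 to 29.

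GABA-A subunits split. GABRA5, an alpha subunit of extrasynaptic receptors, fell by 0.98 ± 0.17 in WT and by 0.49 ± 0.19 in Control gRNA, and GABRG3 by 1.17 ± 0.17 and 0.87 ± 0.25. The Control gRNA call of GABRA5 (adjusted p = 0.0421, edgeR) was lost in 9 of 15 alternatives, without each of 8 libraries (all 10 except untreated replicate 2 and vincristine replicate 3) and with the replicate block (adjusted p = 0.0509). GABRB1 rose in both lines, from 4.94 ± 0.417 to 8.27 ± 1.27 CPM in WT and, at a low level, from 0.201 ± 0.157 to 0.918 ± 0.351 CPM in Control gRNA. The latter call was lost without untreated replicate 1 (adjusted p = 0.0575, edgeR), untreated replicate 5 (0.0505) or vincristine replicate 5 (0.0599). GABRQ rose in Control gRNA by 1.46 ± 0.36 on the log2 scale. Among glycine receptor genes GLRA1 rose in WT from 0.441 ± 0.0377 to 1.26 ± 0.272 CPM (log2 fold change 1.48 ± 0.32) and GLRA2 fell in Control gRNA by 0.51 ± 0.10. GLRA1 shares 18.1% of its exon bases with AC091982.2.

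**Figure D4:**
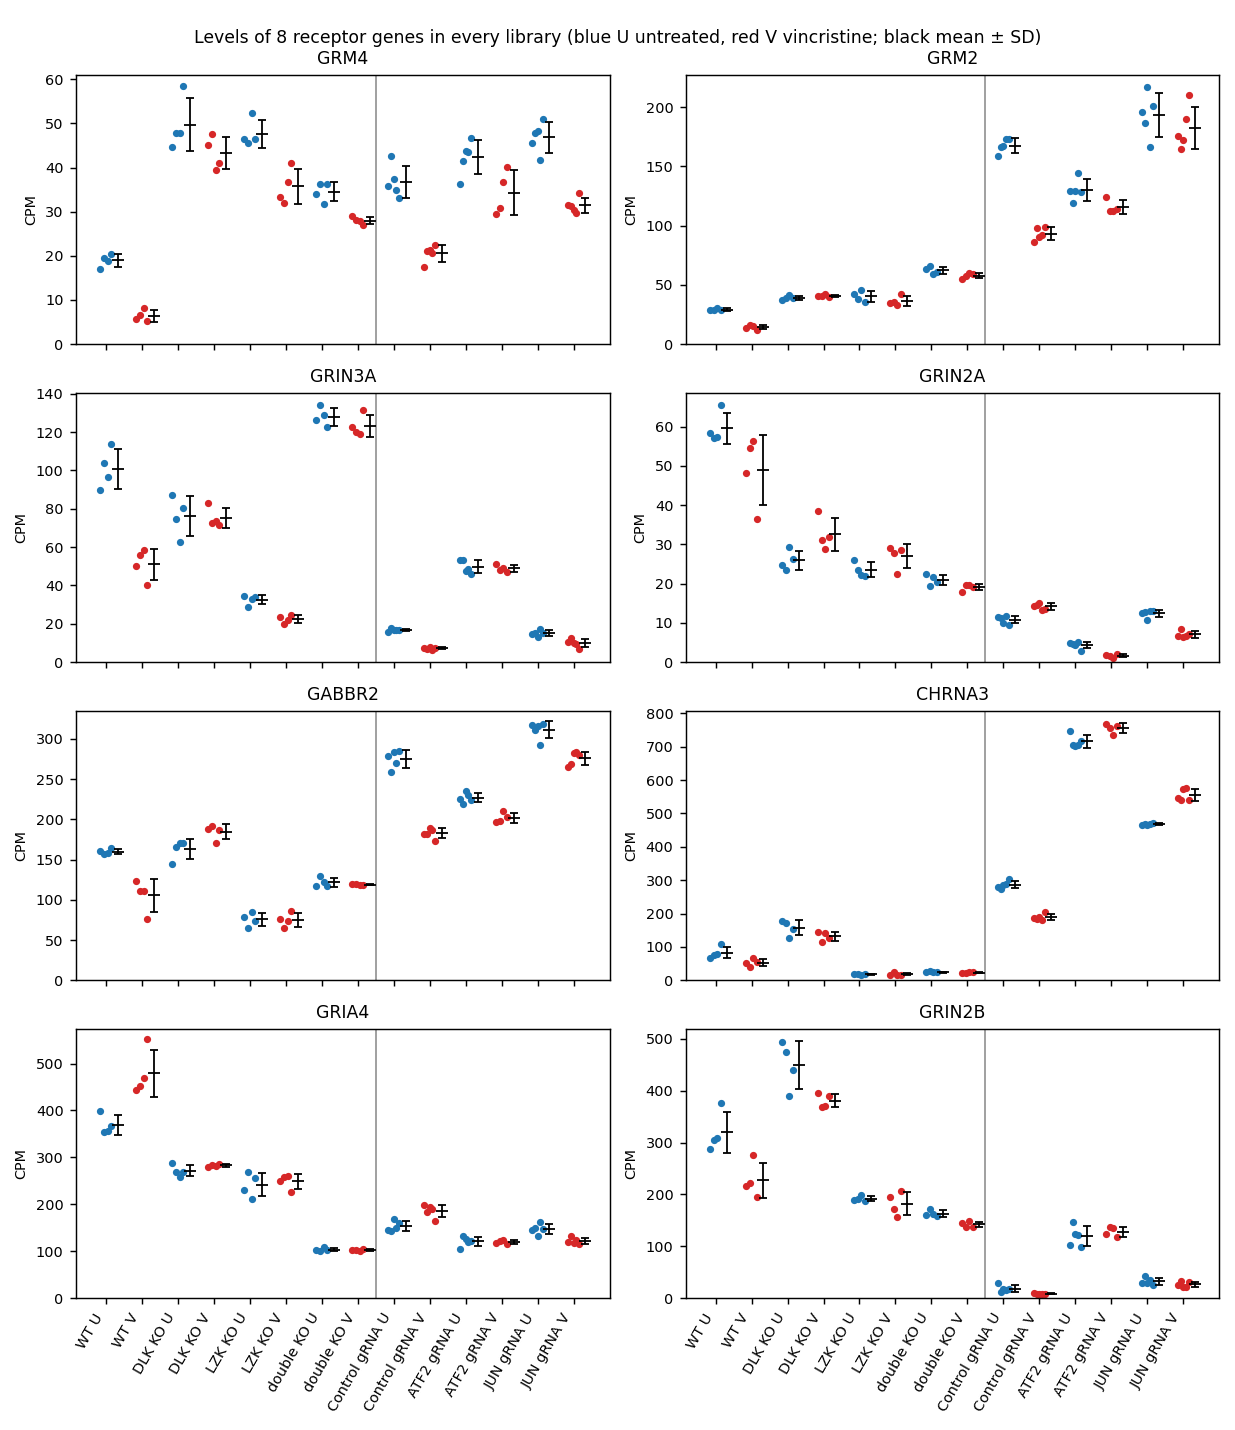
CPM of 8 receptor genes in each library of the 14 groups, untreated and with vincristine, with group mean ± SD. GRM4, GRM2, GRIN3A, GABBR2 and CHRNA3 lie lower with vincristine in WT and Control gRNA, and GRIA4 lies higher.

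The second question was whether the lines that lack DLK, LZK or both respond to the drug. In double KO 0 of 53 members were called, and 0.0658% of all genes were (12 genes, edgeR). At an unadjusted p under 0.05 there were 5 members (9.43%, against 6.01% of all genes), and DESeq2 called 0, while a fit of only the double KO groups called 5. In DLK KO 0 of 53 members were called although 6.53% of all genes were. There 10 members (18.9%, against 23.2% of all genes) passed an unadjusted p of 0.05, DESeq2 called 3, a fit of only the DLK KO groups called 11, and leaving out untreated replicate 3 or vincristine replicate 3 gave 3 and 1. For these other fits of double KO and DLK KO the share of all genes called was not counted, so their member counts have no background. In LZK KO 1 of 53 members was higher and 3 lower, against 2.27% and 1.61% of all genes. CHRNA6 rose by 1.44 ± 0.33 on the log2 scale, and GRIN3A (-0.53 ± 0.11) and GRM4 (-0.42 ± 0.09) were among those that fell. The CHRNA6 rise rests on a low level. Its RPKM was 1.16 in untreated WT, and untreated LZK KO was lower still (log2 difference -2.50). No library of experiment 1 held more than 70 counts of it. The GRM4 call was lost with only the LZK KO groups (adjusted p = 0.0538).

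The response itself differed between knockout lines and WT for 15 to 19 members, by the interaction term of the same fit. For DLK KO minus WT, 12 members were called higher and 7 lower, against 9.95% and 9.41% of all genes. The DLK KO count fell from 19 to 12 without WT untreated replicate 2, to 10 without WT untreated replicate 3 and to 10 without DLK KO untreated replicate 1. For LZK KO minus WT it was 12 and 3, against 5.88% and 6.53%, and for double KO minus WT 13 and 5, against 9.21% and 10.2%. These 3 comparisons share the WT libraries, so their values are given side by side. GRM4 stood at 49.7 ± 5.98 and 43.3 ± 3.71 CPM in DLK KO without and with vincristine, 47.7 ± 3.15 and 35.7 ± 4.05 in LZK KO, and 34.5 ± 2.17 and 28.0 ± 0.823 in double KO. Its difference in response from WT was 1.34 ± 0.15, 1.12 ± 0.15 and 1.24 ± 0.15 on the log2 scale (adjusted p = 2.27e-08, 1.65e-06 and 1.07e-07, edgeR).

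For GRM2 the difference from WT was 1.10 ± 0.12 (DLK KO), 0.89 ± 0.12 (LZK KO) and 0.93 ± 0.12 (double KO), and its double KO level was 62.4 ± 3.08 CPM untreated and 57.9 ± 2.05 treated. GRIN3A stayed between 76.1 ± 10.4 and 75.1 ± 5.29 CPM in DLK KO and between 128 ± 4.82 and 123 ± 5.72 in double KO, differences from WT of 0.96 ± 0.13 and 0.92 ± 0.13. GABBR2 differed by 0.78 ± 0.13, 0.59 ± 0.13 and 0.57 ± 0.13, and GRIK3 by 0.99 ± 0.21, 0.81 ± 0.21 and 0.70 ± 0.20, in the same order of lines. GABRA5 differed by 0.82 ± 0.23, 0.95 ± 0.32 and 0.99 ± 0.22, of which the LZK KO call was lost in 15 of 21 alternatives, 11 of them each leaving out 1 library (numbers 2 and 3 of untreated WT, 2, 3 and 4 of treated WT, 1, 2 and 4 of untreated LZK KO, and 1, 2 and 3 of treated LZK KO). The DLK KO call of GABRA5 was lost with no filter (adjusted p = 0.0536, edgeR) and the LZK KO call of GRIK3 with only the groups compared (0.0579). GABRG3 differed by 1.10 ± 0.23 in double KO.

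Other members had differences below 0, so that their fold change was lower in the knockout line than in WT. GRIA4 stood at 272 ± 12.4 and 283 ± 2.74 CPM in DLK KO, 242 ± 25.3 and 249 ± 16.0 in LZK KO, and 104 ± 3.46 and 103 ± 2.22 in double KO, with differences from WT of -0.32 ± 0.09, -0.34 ± 0.09 and -0.39 ± 0.09. GRM5 differed by -0.69 ± 0.23, -0.70 ± 0.20 and -0.84 ± 0.19, and GLRA1 by -1.22 ± 0.41 with DLK lost and -1.50 ± 0.41 with both genes lost. GRM7 differed by -0.50 ± 0.17 in DLK KO, GABRB1 by -0.93 ± 0.27 in double KO and GRIK2 by -0.38 ± 0.12 in LZK KO. Several of these calls depended on single libraries. In DLK KO the GLRA1 call was lost in 10 of 21 alternatives, 8 of which left out a library (numbers 2, 3 and 4 of untreated WT, 4 of treated WT, 1 and 4 of untreated DLK KO, and 2 and 3 of treated DLK KO). There the GRM5 call was lost in 10, 8 of which left out a library (numbers 1, 2 and 3 of untreated WT, 3 of treated WT, 1 and 4 of untreated DLK KO, and 1 and 2 of treated DLK KO). The GRM7 call was lost in 12, 9 of which left out a library (numbers 2 and 3 of untreated WT, 1 and 3 of treated WT, 1, 2 and 4 of untreated DLK KO, and 1 and 4 of treated DLK KO), and with the replicate block (-0.51, adjusted p = 0.0504, edgeR). In LZK KO the libraries on which the GRM5 call depended were numbers 1 and 3 of untreated WT and 3 of treated WT. Those of GRIK2 were numbers 2 and 3 of untreated WT, 3 of treated WT, 2 and 4 of untreated LZK KO, and 1 of treated LZK KO. For GRIA4 in LZK KO the single library was LZK KO untreated replicate 2 (-0.28, adjusted p = 0.0526, edgeR), and for GABRB1 in double KO it was double KO untreated replicate 1 (-0.74, adjusted p = 0.0503).

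**Figure D5:**
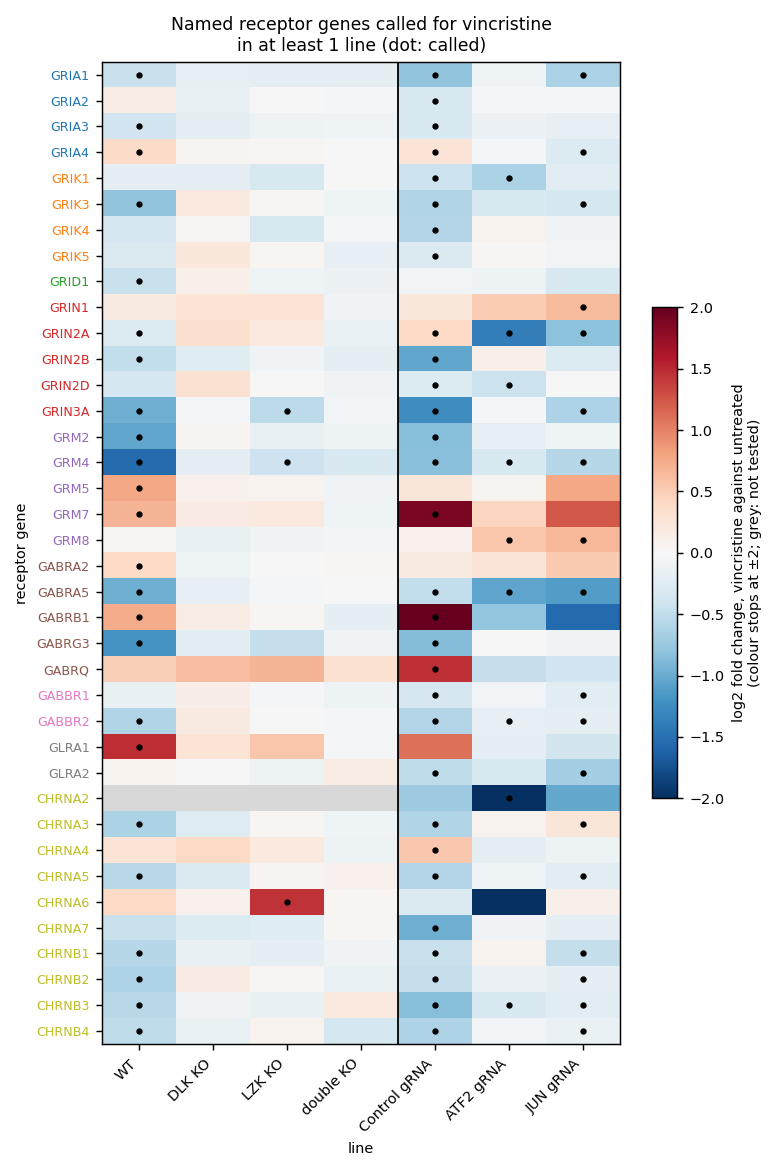
Log2 fold change with vincristine (colour) in the 7 lines (columns) for the receptor genes named in the text and called in at least 1 line (rows); a dot marks a call and grey a gene not tested. Most dots are in the WT, Control gRNA and JUN gRNA columns and 0 are in DLK KO or double KO (edgeR). CHRNA2 and CHRNA6 in ATF2 gRNA rest on counts near 0.

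The same question was asked of the transcription factors with gRNA. In ATF2 gRNA 1 of 58 members was higher and 8 lower with vincristine, against 1.88% and 4.22% of all genes, and in JUN gRNA 3 were higher and 16 lower, against 7.58% and 8.31%. A fit of only the ATF2 gRNA groups called 4 members, and the share of all genes called in that fit was not counted. The response differed from Control gRNA for 23 members in ATF2 gRNA, 16 higher and 7 lower, against 10.2% and 10.4% of all genes. In JUN gRNA 13 were higher and 7 lower, against 8.71% and 7.06%. The nicotinic family, 13 of the 58 members tested, held 7 of the 16 higher differences in ATF2 gRNA and 6 of the 13 in JUN gRNA. It also held 2 of the lower differences in ATF2 gRNA and 1 in JUN gRNA. In the GABA-B family 2 of 2 genes had higher differences in each line. JUN RNA was itself low in ATF2 gRNA, at 21.0 ± 2.00 CPM untreated and 20.5 ± 3.08 with vincristine, against 237 ± 12.9 CPM in treated Control gRNA.

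CHRNA3, which fell in Control gRNA, went from 468 ± 2.77 to 556 ± 18.4 CPM in JUN gRNA, where it rose (0.25 ± 0.03, adjusted p = 3.44e-08, edgeR). In ATF2 gRNA it stood at 716 ± 18.4 and 755 ± 15.0 CPM and did not pass the test. Its difference in response from Control gRNA was 0.85 ± 0.04 in JUN gRNA and 0.68 ± 0.05 in ATF2 gRNA (adjusted p = 1.66e-19 and 3.29e-16). CHRNA5 differed by 0.51 ± 0.06 with ATF2 gRNA and 0.38 ± 0.06 with JUN gRNA, CHRNB4 by 0.57 ± 0.06 and 0.49 ± 0.06, CHRNB3 by 0.55 ± 0.11 and 0.64 ± 0.10, and CHRNB2 by 0.36 ± 0.06 and 0.30 ± 0.06. With vincristine in JUN gRNA, where CHRNA3 rose, CHRNA5 fell by 0.21 ± 0.04, CHRNB4 by 0.13 ± 0.04, CHRNB3 by 0.21 ± 0.07 and CHRNB2 by 0.18 ± 0.04. Of these the CHRNB3 call was lost without untreated replicate 1 or 2 or vincristine replicate 1, 2 or 3 (adjusted p from 0.0577 to 0.118, edgeR), and the CHRNB4 call without untreated replicate 3 (0.0792) or vincristine replicate 2 (0.0704) and with only the JUN gRNA groups (0.0565). CHRNA7 differed upward by 0.92 ± 0.13 and 0.80 ± 0.13, and CHRNA4, which rose in Control gRNA, differed by -0.72 ± 0.11 and -0.64 ± 0.10 (ATF2 gRNA, then JUN gRNA). CHRNA2 was at 0 CPM in every treated ATF2 gRNA library and 0.0909 ± 0.0765 CPM in the untreated ones, so no fold is given.

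NMDA subunits parted in these lines. GRIN3A, which fell in Control gRNA, measured 53.2, 53.5, 47.5, 48.7 and 46.1 CPM in untreated ATF2 gRNA and 51.4, 48.0, 49.2 and 47.0 with vincristine, overlapping ranges, and its difference in response was 1.21 ± 0.13 (adjusted p = 4.67e-10, edgeR). GRIN2B measured 103, 148, 125, 122 and 98.8 CPM in untreated ATF2 gRNA and 124, 138, 135 and 118 treated, also overlapping, a difference in response of 1.14 ± 0.25 (adjusted p = 0.00168). GRIN2A went the other way: from 4.90, 4.63, 4.32, 5.04 and 2.96 CPM in untreated ATF2 gRNA to 1.82, 1.58, 1.13 and 2.15 treated, groups apart, a fall of 1.39 ± 0.15 on the log2 scale (adjusted p = 7.5e-09). In JUN gRNA GRIN2A fell by 0.81 ± 0.12. Its difference in response from Control gRNA, where it rose, was -1.78 ± 0.19 (ATF2 gRNA) and -1.21 ± 0.17 (JUN gRNA).

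Other members also fell with vincristine in the gRNA lines. GRM4 fell in ATF2 gRNA from 42.4 ± 3.85 to 34.3 ± 5.04 CPM (-0.31 ± 0.08) and in JUN gRNA from 46.8 ± 3.50 to 31.4 ± 1.77 (-0.58 ± 0.08). The ATF2 gRNA call was lost without untreated replicate 5 (adjusted p = 0.0589, edgeR), vincristine replicate 2 (0.122) or vincristine replicate 3 (0.0861) and with only the ATF2 gRNA groups (0.0626). GRM2 did not pass the test in either, at 130.1 ± 9.31 and 116 ± 5.90 CPM in ATF2 gRNA and 194 ± 18.7 and 183 ± 17.9 in JUN gRNA. The difference of GRM2 from the Control gRNA response was 0.68 ± 0.09 and 0.76 ± 0.08. GABRA5 fell by 1.05 ± 0.22 with ATF2 gRNA and by 1.12 ± 0.20 with JUN gRNA, where GLRA2 fell by 0.68 ± 0.10 and GRIN3A by 0.62 ± 0.09. GRIK1 fell by 0.63 ± 0.16 in ATF2 gRNA, a call lost without vincristine replicate 3 (-0.55, adjusted p = 0.0553, edgeR) or 4 (-0.50, adjusted p = 0.0867).

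GRM8 rose in both of these lines, by 0.55 ± 0.13 with ATF2 gRNA and 0.67 ± 0.14 with JUN gRNA, from 10.5 ± 0.952 to 15.4 ± 1.31 and from 2.23 ± 0.376 to 3.53 ± 0.530 CPM. GRIN1 rose in JUN gRNA by 0.63 ± 0.18, a call lost without vincristine replicate 1 (0.54, adjusted p = 0.0518, edgeR). GABRQ differed from its Control gRNA rise by -1.94 ± 0.54 with ATF2 gRNA and -1.84 ± 0.51 with JUN gRNA.

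The third question is how the lines differed without the drug. In double KO 29 of 53 members were higher than in WT and 15 lower, against 23.6% and 22.1% of all genes, with a median log2 difference of 0.48, and 43 of the 44 called had libraries apart (97.7%, against 89.7% of all genes called). Higher in double KO were 8 of 13 GABA-A, 6 of 7 metabotropic and 4 of 5 kainate genes, while both GABA-B genes were lower and 4 glycine receptor genes split into 2 higher and 2 lower. GRM8, a presynaptic receptor coupled to inhibitory G proteins, measured 6.59, 5.96, 5.76 and 7.05 CPM in WT and 61.3, 67.3, 69.5 and 60.9 in double KO. The groups were far apart, at a log2 difference of 3.36 ± 0.09 (adjusted p = 3.7e-26, edgeR). GABRB2, a beta subunit, was 4.36 ± 0.27 higher, from 0.384 ± 0.169 CPM in WT to 8.35 ± 1.44.

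CHRNA5 measured 38.6, 42.0, 43.1 and 46.7 CPM in WT and 6.24, 5.54, 5.62 and 5.21 in double KO, a log2 difference of -2.92 ± 0.11 (adjusted p = 3.36e-22, edgeR). CHRNA3 was lower by -1.76 ± 0.14, with double KO libraries at 23.6, 26.8, 23.7 and 23.5 CPM, and CHRNB4 by -1.58 ± 0.12. GRIA4 was lower by -1.83 ± 0.07 and GRIN2A by -1.51 ± 0.10. The 20 genes nearest to GRIA4 on chromosome 11 had a median difference of -1.001, 18 of them below 0, and the 20 nearest to GRIN2A on chromosome 16 had -0.86, 19 below 0, whereas the member GRIK4, also on chromosome 11, had a difference of 0.54 ± 0.22 beside neighbours at -0.77. The call of GRIK4 (adjusted p = 0.0465, edgeR) was lost in 10 of 13 alternatives, 7 of them each leaving out 1 library (all 8 except double KO untreated replicate 2). The part of these neighbourhoods in the receptor values was not tested. Markers of other cells differed too: ISL1, a factor of sensory and motor neurons, stood at 66.3 CPM in double KO and 1.21 in WT, PRPH at 112 and 2.84, and the pluripotency marker LIN28A at 53.4 and 1.88, while POU5F1 and NANOG were under 1 CPM in all groups. Their part was not tested either.

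In DLK KO 19 of 53 members were higher than in WT and 14 lower, against 16.5% and 17.9% of all genes. GRIK4, a kainate subunit, measured 1.34, 1.77, 1.61 and 1.79 CPM in WT and 10.6, 10.5, 10.9 and 14.3 in DLK KO, a log2 difference of 2.82 ± 0.18 (adjusted p = 3.01e-15, edgeR). GRIA1 measured 9.65, 9.51, 9.69 and 13.4 CPM in WT and 45.7, 39.7, 34.6 and 35.1 in DLK KO, higher by 1.88 ± 0.11 (adjusted p = 1.39e-16). It measured 48.4, 43.3, 45.4 and 48.0 in double KO and 4.89, 5.77, 6.94 and 6.83 in LZK KO, so GRIA1 was high in both lines without DLK and low in LZK KO (log2 differences 2.13 ± 0.11 and -0.78 ± 0.13). GABRB2 was higher by 3.52 ± 0.29, and GABRB1 (-1.21 ± 0.21), GRIN2A (-1.19 ± 0.10) and GRM3 (-1.11 ± 0.37) were lower. The GRM3 call was lost without WT untreated replicate 3 (-0.94, adjusted p = 0.0799), DLK KO untreated replicate 3 (-0.94, adjusted p = 0.071) or DLK KO untreated replicate 4 (-0.98, adjusted p = 0.0589). ISL1 stood at 20.5 CPM in DLK KO and 1.21 in WT, and its part was not tested.

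In LZK KO 12 members were higher and 25 lower, against 17.1% and 16.8% of all genes, with a median of -0.44, and 34 of the 37 called had libraries apart (91.9%, against 80.3% of all genes called). Lower were 6 of 11 nicotinic genes (1 higher), 3 of 4 AMPA, 3 of 5 NMDA (2 higher) and 2 of 2 GABA-B genes. Over all members tested 47.2% were lower. CHRNA3 measured 18.2, 18.3, 16.5 and 18.1 CPM, below the 68.0 to 107 CPM of WT and lower by -2.22 ± 0.15 (adjusted p = 1.46e-13, edgeR), CHRNB4 by -1.78 ± 0.13 and CHRNA6 by -2.50 ± 0.28. In DLK KO, by contrast, CHRNA3 measured 177, 172, 127 and 154 CPM, higher than WT by 0.93 ± 0.13, and CHRNB4 was higher by 0.84 ± 0.11. GABRA5 was lower in LZK KO by -2.10 ± 0.20, while GLRA1 (1.91 ± 0.31), GRM4 (1.33 ± 0.10) and GRIN1 (1.19 ± 0.18) were higher. The 3 cycling-cell markers summed to 59.4 to 67.6 CPM in LZK KO and 10.5 to 12.3 in WT, and the 6 peripheral markers to 133 to 167 and 429 to 463, and their part was not tested.

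In ATF2 gRNA 22 of 58 members were higher than in Control gRNA and 18 lower, against 19.7% and 20.2% of all genes. GRIA2 measured 33.0, 28.6, 41.8, 34.8 and 35.2 CPM in Control gRNA and 130, 171, 167, 153 and 168 in ATF2 gRNA, a log2 difference of 2.18 ± 0.12 (adjusted p = 6.92e-14, edgeR). GRIN2B was higher by 2.69 ± 0.18 and GRIN1 by 1.89 ± 0.19, while GRIN2A was lower by -1.30 ± 0.12. GABRG3 measured 1.06, 0.609, 1.85, 1.49 and 1.21 CPM in Control gRNA and 13.4, 13.8, 11.9, 13.2 and 11.7 in ATF2 gRNA, higher by 3.33 ± 0.23. For these 5 genes the libraries of the groups did not overlap.

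The nicotinic family was split in ATF2 gRNA, with 5 members higher and 6 lower. CHRNA3 measured 747, 706.5, 701.5, 706 and 718 CPM, above every Control gRNA library, a difference of 1.32 ± 0.03 (adjusted p = 1.44e-33, edgeR), and its neighbours CHRNA5 and CHRNB4 were higher by 1.09 ± 0.04 and 0.77 ± 0.04. CHRNB3 measured 10.8, 12.9, 15.9, 12.8 and 13.4 CPM, below the 53.3 to 57.6 of Control gRNA (-2.09 ± 0.08), and CHRNA4 measured 20.2, 20.3, 21.5, 21.6 and 20.0 against 81.5, 94.6, 78.5, 76.7 and 76.2 (-1.97 ± 0.08), both apart. POU4F1 stood at 222 CPM in ATF2 gRNA and 481 in Control gRNA, and its part was not tested.

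In JUN gRNA 16 members were higher and 6 lower, against 5.78% and 5.46% of all genes, and 14 of the 22 called had libraries apart (63.6%, against 62.8% of all genes called). CHRNA3 measured 465, 468, 466, 467 and 472 CPM, above every Control gRNA library and higher by 0.71 ± 0.03 (adjusted p = 5.82e-22, edgeR). GRIA1 (0.84 ± 0.15) and GRIN2B (0.80 ± 0.17) were higher, and GABRA2 (-1.003 ± 0.25) and GRM8 (-0.49 ± 0.14) lower. The GABRA2 call was lost without Control gRNA untreated replicate 2 (-0.71, adjusted p = 0.0515) and that of GRM8 without JUN gRNA untreated replicate 3 (-0.40, adjusted p = 0.0605).

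The proteins that traffic and anchor these receptors were followed as lists, named with results of these data known and counted without a test of the list. Of 16 auxiliary subunits of AMPA and kainate receptors, 1 rose and 5 fell with vincristine in WT, and 4 rose and 7 fell in Control gRNA, with medians of -0.14 and -0.23 against -0.0 and 0.03 for all genes. Over all genes tested, 15.7% rose and 14.5% fell in WT and 17.1% rose and 18.1% fell in Control gRNA, which is also the background of the lists that follow. CACNG3, an AMPA auxiliary of the stargazin family, rose by 1.85 ± 0.23 in WT and 3.26 ± 0.37 in Control gRNA, and SHISA6, another AMPA auxiliary, fell by 1.09 ± 0.16 and by 1.09 ± 0.03. NETO2, a kainate auxiliary, fell by 0.45 ± 0.08 and by 0.28 ± 0.06. Of 18 scaffolds of excitatory synapses, 5 rose and 2 fell in WT, and 6 rose and 8 fell in Control gRNA. HOMER1, which links group I metabotropic receptors to calcium stores, rose by 0.91 ± 0.08 and 0.57 ± 0.06, DLG2 by 1.02 ± 0.09 and 0.51 ± 0.08, and DLGAP1 by 0.74 ± 0.10 and 0.59 ± 0.07, while SHANK2 fell by 0.37 ± 0.11 and by 0.54 ± 0.08. In WT the SHANK2 value was -0.22 without vincristine replicate 4, and its call was lost with only the WT groups (adjusted p = 0.115, edgeR).

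Of 12 scaffolds of inhibitory synapses and GABA receptor partners, 3 rose and 3 fell in WT and 3 rose and 6 fell in Control gRNA. Of 6 chaperones and modulators of nicotinic receptors tested in WT and 7 in Control gRNA, 0 rose and 3 fell in WT, and 1 rose and 2 fell in Control gRNA. Of 8 tested genes for transmitter synthesis and vesicle loading, 1 rose and 3 fell in each line. Among them SLC17A6, a vesicular glutamate transporter, rose by 0.38 ± 0.08 and 0.36 ± 0.05, and its relative SLC17A7 fell by 0.40 ± 0.10 and by 0.31 ± 0.04. The WT call of SLC17A7 was lost with only the WT groups (adjusted p = 0.0583, edgeR). In double KO 0 genes of any of these lists were called with vincristine (edgeR), and in DLK KO the numbers called were 1 of the 16 AMPA and kainate auxiliaries, 2 of the 18 excitatory scaffolds, 2 of the 12 inhibitory scaffolds and partners, 0 of the 6 nicotinic chaperones and 1 of the 8 transmitter genes, while 6.53% of all genes were called. In ATF2 gRNA these numbers were 1 of 16, 3 of 18, 3 of 12, 2 of 7 and 0 of 8, where 1.88% of all genes were higher and 4.22% lower. In JUN gRNA they were 10 of 16, 5 of 18, 6 of 12, 2 of 7 and 1 of 8, where 7.58% of all genes were higher and 8.31% lower.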

How the data were processed

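RNA was measured by poly(A)-selected, stranded, paired-end sequencing, per the labels' protocols. The authors deposited raw counts per gene, whole numbers in a separate table for each experiment, with a gene length column in bases. Trimming of adapters with cutadapt, marking of duplicates and the layout of featureCounts are per the file headers. The submitters' processing notes name cutadapt 3.4, STAR, featureCounts, Subread 2.0.1 and GRCh38, without roles. The strand setting, and the use made of marked duplicates, are not given in the sources used here. Of 58440 identifiers 58320 matched a GENCODE 29 symbol, and 65 of the 68 members have the same version and coordinates there. All count columns were matched to samples by name. No replicates were copies of each other (104 pairs).

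Each experiment was fitted on its own with the quasi-likelihood test of edgeR 4.0.16 in R 4.3.3 (filterByExpr by group, TMM factors, robust, all groups in 1 fit), leaving 18235 and 20759 genes. Tests are 2-sided with Benjamini-Hochberg adjustment across the genes of a comparison, and a gene is called at an adjusted p under 0.05. The standard error (SE) is the size of the log2 fold change over the root of its F statistic. CPM use TMM factors, and RPKM the length column. The chi-square per gene between replicate libraries was at least 1.59, where counting error alone gives about 1. The fits were tested on simulated counts. Motifs were searched on both strands in Python 3.11.15, and figures drawn with matplotlib 3.10.9.

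The 17 comparisons are the vincristine effect in 7 lines, 5 differences in that effect and 5 untreated contrasts. Named genes are the member of each family with the highest RPKM in untreated WT or Control gRNA, the members called for vincristine in both WT and Control gRNA or called in either with a log2 fold change of 1 or more in size, and for each other comparison the 3 highest and 3 lowest called members, all with mean log2 CPM of at least 0. Some genes that this rule or the lists name are counted but not reported here. Others named were chosen after their values were seen. The members, lists and markers were chosen with earlier results of these data known. Alternatives were DESeq2 1.42.0, RLE factors, no filter, a replicate block, a fit of the compared groups alone, and the omission of each library.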

Additional observations from a re-analysis of the deposited data

Results flagged for a closer look

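Among the 67 combinations of gene and group whose libraries are given above, 5 held a library with a large gap to the rest of its group by Dixon's criterion, which chance reaches in about 1 in 20 groups. CHRNA4 stood at 94.6 CPM in Control gRNA untreated replicate 2, CHRNA3 at 16.5 CPM in LZK KO untreated replicate 3 and at 26.8 CPM in double KO untreated replicate 2, GRIK4 at 14.3 CPM in DLK KO untreated replicate 4, and GRIA1 at 13.4 CPM in WT untreated replicate 4. The GRIA1 call with vincristine in WT depended on that library.

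A further 28 values were listed because the response to vincristine differed between a line and its control by the interaction term. In DLK KO minus WT these were GRM4 (1.34), GRM2 (1.10), GRIK3 (0.99), GLRA1 (-1.22), GRM5 (-0.69) and GRM7 (-0.50). In LZK KO minus WT they were GRM4 (1.12), GABRA5 (0.95), GRM2 (0.89), GRM5 (-0.70), GRIK2 (-0.38) and GRIA4 (-0.34). In double KO minus WT they were GRM4 (1.24), GABRG3 (1.10), GABRA5 (0.99), GLRA1 (-1.50), GRM5 (-0.84) and GABRB1 (-0.93). In ATF2 gRNA minus Control gRNA they were GRIN3A (1.21), GRIN2B (1.14), CHRNA7 (0.92), GABRQ (-1.94) and GRIN2A (-1.78). In JUN gRNA minus Control gRNA they were CHRNA3 (0.85), CHRNA7 (0.80), GRM2 (0.76), GABRQ (-1.84) and GRIN2A (-1.21). All are log2 differences, and comparisons that share WT or Control gRNA libraries are not independent.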

How the results depend on the processing

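Of 118 values for named genes, 98 kept their direction and their call in all alternatives run, 20 lost the call in at least 1 (4 of them only on leaving out a library) and 0 reversed. Of 78 further values printed for called genes outside the naming rule, 67 kept direction and call, 11 lost the call in at least 1 alternative, as given beside them, and 0 reversed. Of 85 counts of called members under another setting, 77 stayed within 1.5 times. The others were the DLK KO effect, 0 members, which became 3 with DESeq2, 1 with no filter and 11 with only the groups compared, and, with only the groups compared, the LZK KO effect (4 to 2), the double KO effect (0 to 5), the ATF2 gRNA effect (9 to 4), the difference of DLK KO from WT (19 to 12) and that of LZK KO from WT (15 to 5). A fit of only the groups compared has fewer libraries from which to estimate the spread. Under the alternatives the share of all genes called was not counted, so these member counts have no background. Leaving out 1 library at a time, counts ran from 0 to 3 for the DLK KO effect, from 3 to 5 for LZK KO, from 10 to 19 for the difference of DLK KO from WT and from 10 to 16 for that of LZK KO from WT. With a replicate block no count moved by over 1.5 times: the members called were 27 (WT), 32 (Control gRNA), 0 (DLK KO), 3 (LZK KO) and 0 (double KO). The replicate block ended 4 calls of the 118, among them those of GRM7 for DLK KO minus WT, GABRA5 for LZK KO minus WT and GABRA5 in Control gRNA, and 1 call of the 78, GRIA2 in Control gRNA. Deviations of same-numbered libraries correlated from -0.41 to 0.19 over 116 pairs, 4 of them over 0.1. A best correlation with the own number was seen in 24 libraries, and the number that unpaired libraries would give was not computed. Whether the numbers mark pairs is therefore not known. The main fit did not pair them, and the replicate block was run as an alternative. Depth limits genes near 0 CPM, such as CHRNA2, CHRNA6, GABRB2 and GLRA1, more than the rest.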
